A study of Mus musculus with 6 samples.

Results

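Expression of glycolysis and hypoxia response genes was followed in thymocytes of E17.5 Rag1-/- mouse fetal thymi. The set was given as 37 gene symbols, and a gene was included when the array annotation had a probe set with that symbol alone; the brightest such probe set was used where there were several. This gave 34 members among 19937 genes. Gapdh, Gpi1 and Eno1 had no such probe set and were not analysed here. The study compared 3 groups of 2 arrays, all from Thy1.2+ cells that were purified with magnets and all of the Rag1-/- genotype. The first group came from thymi stimulated for 40 h with antibody to CD3 in the presence of 50 µM 79-6, the second from thymi stimulated for 40 h with the antibody and DMSO, the solvent, and the third from fresh thymi at 0 h. They are called 79-6, DMSO and fresh. 79-6 is an inhibitor of the transcriptional repressor Bcl6. Thymocytes without Rag1 cannot rearrange T cell receptor genes and stop at the double-negative stage, and the antibody stands in for the missing pre-T cell receptor signal. Per the series design the thymi were organ cultures, in which thymocytes stay among stromal cells.

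Glycolysis converts glucose to pyruvate in the cytosol. Glucose enters through transporters, is phosphorylated by hexokinases, is committed by phosphofructokinase, and is then split and oxidised to pyruvate, which either enters mitochondria or is reduced to lactate and exported. The hypoxia-inducible factors (HIF) raise many of these genes when oxygen is low. In normal oxygen the prolyl hydroxylases encoded by Egln genes mark the HIF alpha subunit, and the Vhl protein directs it to degradation, so HIF activity is set mainly at the protein level. Egln3 and several further members are themselves HIF target genes. Developing thymocytes are known to raise glucose uptake and glycolysis when the pre-T cell receptor signals and cells divide.

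Replicate arrays correlated at 0.9968 (79-6), 0.9975 (DMSO) and 0.9977 (fresh) across genes, which are not independent, against 0.9787 to 0.9946 between groups. Array signals carry no depth in counts. The 2 arrays per group limit the precision, and the labels do not say that replicates were separate cultures or litters. Thy1, the surface antigen used for purification, averaged 13.07 ± 0.02, 13.23 ± 0.04 and 12.80 ± 0.03 on the log2 scale with 79-6, with DMSO and in fresh cells (SD, n = 2 each), and the CD3 chain gene Cd3e 12.97 ± 0.05, 12.96 ± 0.03 and 13.43 ± 0.04. The 11 measured thymocyte markers, which include stage markers, moved both ways: 5 rose and 5 fell with DMSO against fresh. Cd8a (4.36), Cd4 (3.23) and Cd8b1 (3.07), coreceptor genes of later thymocytes, rose, and Ptcra (-1.86) and Il2ra (-1.94), genes of the double-negative stage, fell. Between 79-6 and DMSO, Il2ra was called higher (0.58) and Cd4 lower (-0.48). Markers of other cells moved between groups too. The summed signal of 15 of 15 measured macrophage and dendritic cell markers lay between 14.69 and 14.84 with 79-6, between 14.27 and 14.37 with DMSO and between 12.87 and 13.42 in fresh cells on the log2 scale. For 12 thymic epithelial markers it was 12.29 to 12.35, 11.92 to 12.46 and 13.53 to 13.59 in the same order of groups. With DMSO against fresh, 5 of the 15 macrophage markers were called higher and 10 were not called. Lyz2 had the largest change (3.88), from 9.18 in fresh cells to 13.06 with DMSO, and weighs most in the DMSO sum. Of the 12 epithelial markers 10 were called lower with DMSO than in fresh cells. With 79-6 against fresh, 13 macrophage markers were called higher and none lower. Of the macrophage markers 3 of 15 were called higher with 79-6 than with DMSO and none lower, and no epithelial marker was called there. Of 11 granulocyte and mast cell markers, with summed signals of 12.67 to 13.05 with 79-6, 12.42 to 12.45 with DMSO and 11.97 to 12.17 in fresh cells, 6 rose and 1 fell with DMSO against fresh. Mmp8 (4.03) and S100a8 (2.03) were among the rises, and the mast cell gene Cpa3 (-1.61) was the fall. With 79-6 against DMSO, 1 of the 11 rose (Mmp8, 1.30) and 3 fell, Cpa3 (-1.43), Mpo (-0.86) and Prtn3 (-0.80). Of 12 mesenchyme and endothelium markers 1 rose and 4 fell with DMSO against fresh, and of 9 erythroid markers 1 rose and 3 fell. With 79-6 against DMSO the counts were 0 and 1, and 1 and 0. With 79-6 against fresh they were 2 and 3, and 1 and 3. Over all genes the shares higher and lower were 8.89% and 10.7%, 2.38% and 1.98%, and 12.0% and 13.9% in these 3 comparisons. The markers named singly were chosen after their values were seen. The part of thymocyte stage and of other cells in the results below was not tested, and fewer cells of a type cannot be told apart from less RNA per cell.

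After 40 h with antibody and DMSO, the oxygen sensor genes Egln1 and Egln3, the mitophagy receptor Bnip3, the lactate exporter Slc16a3 and the phosphofructokinase Pfkp were among the members that stood above fresh cells. Of the 34 members 16 rose and 1 fell at a limma adjusted p below 0.05 (Benjamini-Hochberg over all 19937 genes). The rises were 47.1% of the members, beside 8.89% of all genes, and the single fall was 2.94%, beside 10.7%. Member medians on the 6 arrays lay between 9.46 and 10.34 on the log2 scale, beside 7.07 to 7.15 over all genes. The shares here and below were not matched for this level, and the members were chosen with earlier results of these data known. The log2 changes of the 16 lay between 0.32 and 1.46. The median change was 0.26 over the members and 0.02 over all genes. A value of 1 on this scale is a 2-fold difference. This comparison holds culture, time, solvent and antibody together. Without fresh replicate 1 or without DMSO replicate 2 the rises numbered 9, and without fresh replicate 1 no member was called lower (1 at an unadjusted p below 0.05).

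With 79-6, compared with DMSO at the same time, most members stood lower. The median log2 change was -0.22, against 0.02 over all genes. Of the 34 changes 30 were negative, beside 8933 of all 19937 genes. In the test 6 members fell, Ndrg1, Vegfa, Egln3, Bnip3, Pfkp and Egln1, and Pdk3 rose. The falls were 17.6% of the members, beside 1.98% of all genes, and the single rise was 2.94%, beside 2.38%. None of these 7 calls held in all 6 fits that left out 1 array. The falls numbered 3 when 1 fresh array, whichever, was left out, 4 without DMSO replicate 1, 1 without 79-6 replicate 1, and 0 without DMSO replicate 2 or without 79-6 replicate 2, where 9 and 14 members were lower at an unadjusted p below 0.05 (limma). The rise of Pdk3 was lost in each of the 6. All these fits leave 5 arrays, and the lone array of a group is then assumed to vary like the others.

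Set against fresh cells, 79-6 cultures had 10 members higher and 4 lower. The rises were 29.4% of the members, beside 12.0% of all genes, and the falls 11.8%, beside 13.9%, which is near the background. The median change was 0.11 over the members and 0.05 over all genes. Without fresh replicate 1 the rises numbered 5. The 3 comparisons share arrays: DMSO arrays enter the first and the second, 79-6 arrays the second and the third, and fresh arrays the first and the third. Their changes are therefore given side by side for each gene. Counts by role below cover 4 to 10 measured members each and are parts of these totals. They are to be read beside the same shares of all genes.

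**Figure D1:**
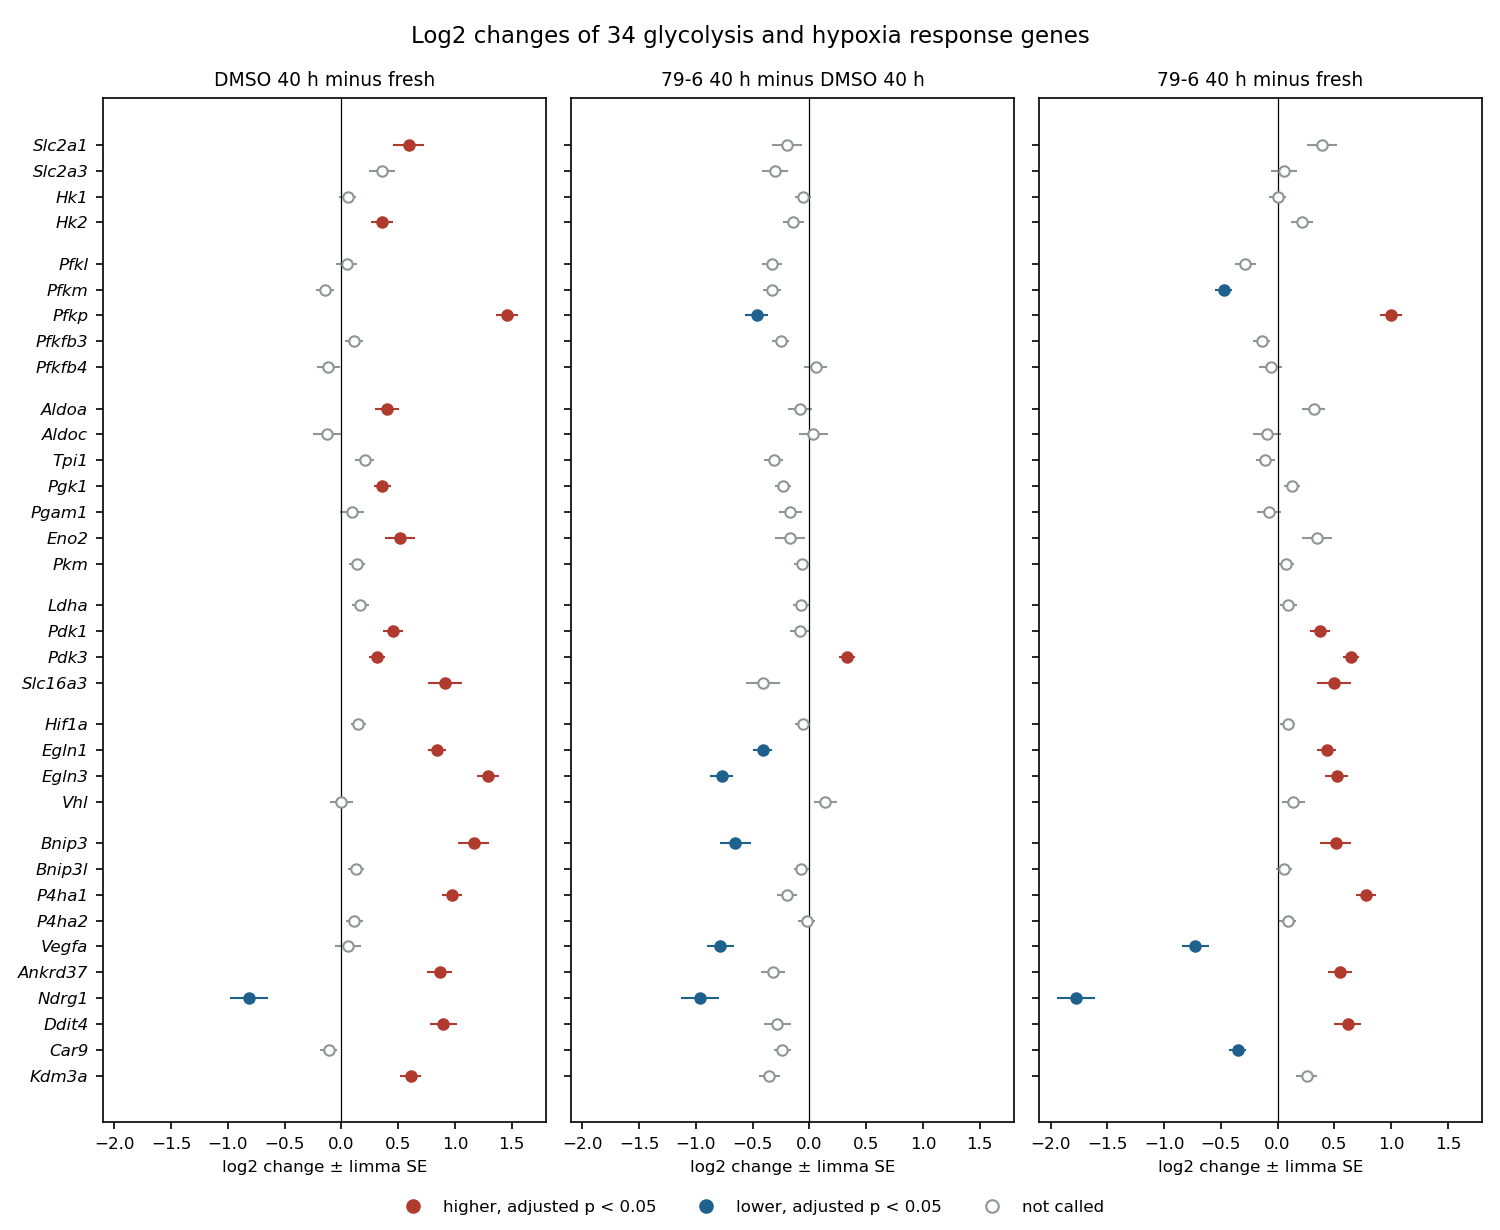
Log2 change with its limma standard error (x axis) for each of 34 members (rows, grouped by role) in 3 comparisons. Filled points passed an adjusted p of 0.05; in the left panel 16 lie right of 0 and Ndrg1 left of it, in the middle panel 6 lie left and Pdk3 right, and in the right panel 10 lie right and 4 left.

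**Figure D2:**
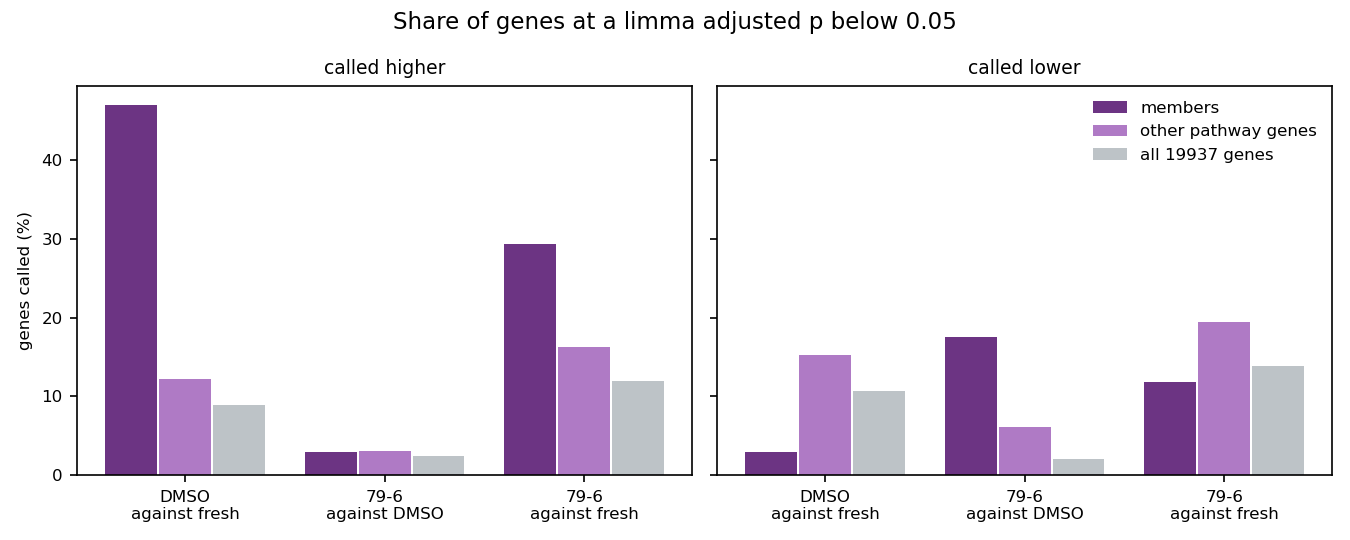
Share of genes called higher (left) or lower (right) in percent (y axis) among the 34 members, 98 other pathway genes and all 19937 genes, for the 3 comparisons. The members' bar reaches 47.1% for rises in DMSO against fresh and 17.6% for falls in 79-6 against DMSO.

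Promoter sequence was examined because HIF binds a short core, ACGTG or GCGTG, in its target genes. Windows of 300 bases, most of them upstream of a gene start, were taken from RefSeq (GRCm38.p6) and searched for both cores on both strands; matches may overlap, as in CACGTG, which holds ACGTG on both strands. Of the 34 members 31 matched, with 45 windows. At least 1 core lay in 34 windows, or 75.6%, beside 43.8% of all 32851 windows, and ACGTG alone in 57.8%, beside 19.6%. Among members higher with DMSO the ACGTG share was 61.9% of 21 windows, and among the other members 54.2% of 24. Counted by gene it was 75.0% and 73.3%, and either core lay in 76.2% and 75.0% of windows, so these groups were close. Windows of the same gene can overlap, as some of Aldoa and Pfkm do. Member windows were also richer in the dinucleotide CG, which both cores contain, with a median of 21 per window beside 7 over all windows. This median was 24 among members higher with DMSO and 16 among the other members. The members were named as glycolysis and hypoxia genes, many of them known HIF targets. A window of a downstream start can lie within the gene: of the 2 Vegfa windows the upstream one holds 0 cores and the downstream one 2. A match describes the sequence only, and binding was not measured.

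The promoters that follow run 5′ to 3′ on the gene's strand, with capitals at the cores. Pfkp, Egln3 and Bnip3 are shown as the members with the highest called changes with DMSO. Pfkm is shown as the paralogue called lower with the inhibitor against fresh cells, where Pfkp was called higher. Pfkm was not called with DMSO. Pfkp (chr13:6648722-6649021, minus strand) holds 4 GCGTG and no ACGTG, and Egln3 (chr12:54203825-54204124, minus strand) a single ACGTG near its upstream end. Bnip3 (chr7:138909457-138909756, minus strand) holds 5 cores, of which 2 are the strands of 1 CACGTG. Pfkm has 4 windows, and which start is used in these cells was not measured. The most upstream one (chr15:98092339-98092638, plus strand), which is printed, holds 3 ACGTG cores, of which 2 are the strands of 1 CACGTG, and the others hold 2, 1 and 0 cores.
Pfkp: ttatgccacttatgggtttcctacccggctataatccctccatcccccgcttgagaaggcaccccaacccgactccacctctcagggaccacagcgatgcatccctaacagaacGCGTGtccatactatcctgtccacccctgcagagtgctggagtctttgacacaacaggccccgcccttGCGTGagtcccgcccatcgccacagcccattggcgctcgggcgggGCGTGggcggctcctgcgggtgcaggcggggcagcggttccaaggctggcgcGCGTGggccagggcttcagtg
Egln3: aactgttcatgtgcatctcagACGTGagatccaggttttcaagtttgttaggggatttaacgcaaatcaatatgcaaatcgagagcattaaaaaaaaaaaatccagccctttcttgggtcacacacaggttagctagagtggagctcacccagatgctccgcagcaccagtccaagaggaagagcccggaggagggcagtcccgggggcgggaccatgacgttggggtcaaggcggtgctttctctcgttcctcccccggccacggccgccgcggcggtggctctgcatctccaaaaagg
Bnip3: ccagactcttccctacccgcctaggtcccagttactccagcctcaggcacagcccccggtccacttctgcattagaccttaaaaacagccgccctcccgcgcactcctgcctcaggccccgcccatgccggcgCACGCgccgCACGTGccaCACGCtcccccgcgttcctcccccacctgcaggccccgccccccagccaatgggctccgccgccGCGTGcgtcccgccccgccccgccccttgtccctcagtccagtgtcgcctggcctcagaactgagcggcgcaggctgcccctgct
Pfkm: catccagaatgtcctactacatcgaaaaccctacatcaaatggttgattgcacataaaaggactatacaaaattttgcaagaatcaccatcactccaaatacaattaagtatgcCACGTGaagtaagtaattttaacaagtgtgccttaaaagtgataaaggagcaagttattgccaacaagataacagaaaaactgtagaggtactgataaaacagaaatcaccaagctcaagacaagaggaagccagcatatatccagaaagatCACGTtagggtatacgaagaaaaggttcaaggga

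Of 4 measured genes for glucose entry and phosphorylation, Slc2a1 and Hk2 rose with DMSO and none was called with 79-6. Slc2a1, which encodes the widely expressed glucose transporter GLUT1, had log2 intensities of 11.35 and 11.37 with 79-6, 11.35 and 11.77 with DMSO, and 10.90 and 11.04 in fresh cells. DMSO and fresh arrays did not overlap, but DMSO replicate 1 lay level with the 79-6 arrays and DMSO replicate 2 above them. The change was 0.59 ± 0.13 (SE, adjusted p = 0.02) for DMSO against fresh, -0.20 (adjusted p = 0.455) for 79-6 against DMSO and 0.39 (adjusted p = 0.0707) for 79-6 against fresh. Hk2, the inducible hexokinase, gave 8.34 and 8.44 with 79-6, 8.47 and 8.59 with DMSO, and 8.07 and 8.28 in fresh cells. It rose by 0.36 ± 0.10 (SE, adjusted p = 0.0378) with DMSO, while its 79-6 arrays lay between the other groups and neither contrast with 79-6 passed the test. Slc2a3, the gene of the high-affinity transporter GLUT3, changed by 0.36 with DMSO (adjusted p = 0.0664) and by -0.30 with 79-6 against DMSO (adjusted p = 0.187), neither past the threshold. Hk1, the constitutive hexokinase, was not called, with changes of 0.06 with DMSO and -0.06 with 79-6 against DMSO. Its identity is uncertain on this array, because Hk1 is also named, beside the ribosomal protein gene Rpl17, on 15 probe sets of several genes. A dimmer Hk1 probe set gave -0.08 and 0.04. The DMSO call of Slc2a1 was lost without fresh replicate 1 (adjusted p = 0.106), fresh replicate 2 (adjusted p = 0.052) or DMSO replicate 2 (adjusted p = 0.0625), and that of Hk2 without fresh replicate 1 (adjusted p = 0.214), DMSO replicate 1 (adjusted p = 0.0835) or DMSO replicate 2 (adjusted p = 0.181).

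Of the 3 phosphofructokinase genes, Pfkp was called higher in both cultures than in fresh cells, Pfkm lower with 79-6 than in fresh cells, and Pfkl nowhere. Pfkp, the platelet-type subunit of the enzyme that commits sugar to glycolysis, had log2 intensities of 9.54 and 9.70 with 79-6, 9.97 and 10.20 with DMSO, and 8.62 and 8.63 in fresh cells. All 3 groups were separate, with DMSO highest and fresh lowest. Pfkp rose by 1.46 ± 0.10 (SE, adjusted p = 1.03e-04) with DMSO, or 2.76-fold, the largest change among the members in that comparison. It fell by 0.47 ± 0.10 with 79-6 against DMSO (SE, adjusted p = 0.0468) and stood 0.996 ± 0.10 above fresh cells (SE, adjusted p = 4.56e-04). Pfkm, the muscle-type subunit, read 8.54 and 8.42 with 79-6, 8.78 and 8.84 with DMSO, and 8.92 and 8.99 in fresh cells. Every 79-6 array was below every DMSO array and every DMSO array below every fresh one, and the change reached the threshold for 79-6 against fresh at -0.47 ± 0.08 (SE, adjusted p = 0.0041); against DMSO it was -0.33 (adjusted p = 0.0622). Pfkl, the liver-type subunit, changed by 0.05 with DMSO and by -0.33 with 79-6 against DMSO (adjusted p = 0.0945). Pfkfb3 and Pfkfb4, which set the level of the allosteric activator of phosphofructokinase, passed in none of the comparisons; their changes lay between -0.25 and 0.11. The DMSO rise of Pfkp held in all 6 fits with 1 array left out, whereas its fall with 79-6 gave adjusted p-values of 0.0756 to 0.207 in them.

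From aldolase to pyruvate kinase, 3 of 7 measured members rose with DMSO, and no contrast with 79-6 passed the test. Aldoa, the main aldolase of most tissues, gave 13.10 and 13.19 with 79-6, 13.14 and 13.32 with DMSO, and 12.71 and 12.94 in fresh cells. Every cultured array lay above both fresh arrays, and the 79-6 and DMSO ranges overlapped. The change was 0.40 ± 0.10 (SE, adjusted p = 0.0329) with DMSO. Pgk1, the phosphoglycerate kinase that makes the first ATP of the pathway, gave 12.56 and 12.60 with 79-6, 12.80 and 12.84 with DMSO, and 12.41 and 12.50 in fresh cells. The 79-6 arrays lay between the tight DMSO and fresh pairs; the change was 0.36 ± 0.07 (SE, adjusted p = 0.0121) with DMSO and -0.24 with 79-6 against DMSO (adjusted p = 0.124). Eno2, the neuronal enolase and a known HIF target, had 6.42 and 6.74 with 79-6, 6.60 and 6.89 with DMSO, and 6.20 and 6.26 in fresh cells, with overlap between 79-6 and DMSO only. It rose by 0.52 ± 0.13 (SE, adjusted p = 0.0325) with DMSO. Tpi1 (triosephosphate isomerase), Pgam1 (phosphoglycerate mutase), Pkm (pyruvate kinase) and Aldoc (the brain aldolase) were not called anywhere, with changes of 0.21, 0.09, 0.14 and -0.13 for DMSO against fresh and of -0.31, -0.17, -0.06 and 0.03 for 79-6 against DMSO. A dimmer Pkm probe set gave 0.16 and -0.05 in these comparisons. Leaving out fresh replicate 1 or either DMSO array ended the calls of Aldoa and Pgk1 (adjusted p = 0.0333 to 0.186 for Aldoa and 0.0172 to 0.0917 for Pgk1 over the 6 fits), and that of Eno2 was lost without fresh replicate 1 (adjusted p = 0.139), fresh replicate 2 (adjusted p = 0.0977) or DMSO replicate 2 (adjusted p = 0.169).

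Of 4 genes that direct pyruvate away from mitochondria or lactate out of the cell, Slc16a3, Pdk1 and Pdk3 rose with DMSO. Slc16a3, the lactate exporter MCT4, had log2 intensities of 9.24 and 9.35 with 79-6, 9.56 and 9.86 with DMSO, and 8.60 and 8.996 in fresh cells. The DMSO arrays were highest and the fresh arrays lowest, with the 2 fresh arrays themselves apart. It rose by 0.91 ± 0.15 (SE, adjusted p = 0.0055) with DMSO, or 1.88-fold, and by 0.50 ± 0.15 (SE, adjusted p = 0.0473) with 79-6 against fresh, and differed by -0.41 between 79-6 and DMSO (adjusted p = 0.183). Pdk1 and Pdk3 encode kinases that switch off pyruvate dehydrogenase, the entry to mitochondrial oxidation. Pdk1 gave 9.84 and 9.97 with 79-6, 9.91 and 10.06 with DMSO, and 9.48 and 9.58 in fresh cells, so both cultured groups stood above fresh cells and overlapped each other. Its change was 0.46 ± 0.09 (SE, adjusted p = 0.0112) with DMSO and 0.37 ± 0.09 (SE, adjusted p = 0.0203) with 79-6, each against fresh.

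Pdk3 was the only member called higher with 79-6 than with DMSO. Its arrays read 11.03 and 11.09 with 79-6, 10.73 and 10.72 with DMSO, and 10.44 and 10.38 in fresh cells, in 3 separate steps with 79-6 on top. The changes were 0.32 ± 0.07 (SE, adjusted p = 0.0195) for DMSO against fresh, 0.33 ± 0.07 (SE, adjusted p = 0.0477) for 79-6 against DMSO and 0.65 ± 0.07 (SE, adjusted p = 7.03e-04) for 79-6 against fresh, the last 1.57-fold. Ldha, the lactate dehydrogenase subunit that favours lactate, read 13.28 and 13.24 with 79-6, 13.28 and 13.40 with DMSO, and 13.15 and 13.19 in fresh cells, with DMSO and 79-6 above fresh by small steps. Its change of 0.17 with DMSO did not pass (adjusted p = 0.182). Without 1 array, the 79-6 against DMSO call of Pdk3 gave adjusted p-values of 0.073 to 0.2. The DMSO call of Pdk3 was lost without fresh replicate 1 (adjusted p = 0.0698), fresh replicate 2 (adjusted p = 0.13), DMSO replicate 1 (adjusted p = 0.0926) or DMSO replicate 2 (adjusted p = 0.0851), that of Pdk1 without fresh replicate 1 (adjusted p = 0.0766) or DMSO replicate 2 (adjusted p = 0.0729). For 79-6 against fresh, the call of Pdk1 was lost without fresh replicate 1 (adjusted p = 0.12), fresh replicate 2 (adjusted p = 0.0541) or 79-6 replicate 2 (adjusted p = 0.0957) and that of Slc16a3 without fresh replicate 1 (adjusted p = 0.225), 79-6 replicate 1 (adjusted p = 0.085) or 79-6 replicate 2 (adjusted p = 0.179).

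Of the 4 genes of HIF and its oxygen sensing, the hydroxylases Egln1 and Egln3 were called in all 3 comparisons and Hif1a and Vhl in none. Hif1a, which encodes the oxygen-regulated HIF subunit, had 11.77 and 11.73 with 79-6, 11.79 and 11.82 with DMSO, and 11.66 and 11.66 in fresh cells. Its change was 0.15 with DMSO (adjusted p = 0.19) and -0.06 with 79-6 against DMSO (adjusted p = 0.665); HIF protein was not measured. Vhl, the gene of the degradation adaptor, read 9.34 and 9.19 with 79-6, 9.06 and 9.19 with DMSO, and 9.02 and 9.23 in fresh cells, with overlapping groups and no call. Egln3, an oxygen-dependent prolyl hydroxylase strongly induced by HIF, read 10.79 and 10.83 with 79-6, 11.46 and 11.72 with DMSO, and 10.25 and 10.34 in fresh cells. The 3 groups were separate, and the 79-6 pair lay nearer to fresh cells than to DMSO. Egln3 rose by 1.29 ± 0.10 (SE, adjusted p = 1.88e-04) with DMSO, or 2.45-fold, and changed by -0.77 ± 0.10 (SE, adjusted p = 0.0113) with 79-6 against DMSO and by 0.52 ± 0.10 (SE, adjusted p = 0.00793) with 79-6 against fresh. Egln1, the main prolyl hydroxylase that restrains HIF in normal oxygen, read 10.35 and 10.30 with 79-6, 10.65 and 10.82 with DMSO, and 9.89 and 9.89 in fresh cells, again in 3 separate pairs with DMSO highest. It changed by 0.84 ± 0.08 (SE, adjusted p = 5.04e-04), -0.41 ± 0.08 (SE, adjusted p = 0.04) and 0.43 ± 0.08 (SE, adjusted p = 0.0074) in the same 3 comparisons. The 79-6 against DMSO call of Egln3 was lost without DMSO replicate 2 (adjusted p = 0.0665) or 79-6 replicate 2 (adjusted p = 0.0678), and that of Egln1 had adjusted p-values of 0.0689 to 0.191 with 1 array left out. Fitted on only the 4 arrays compared, the Egln1 call was lost too (adjusted p = 0.0689), as were those of Pfkp (adjusted p = 0.0756), Bnip3 (adjusted p = 0.0646) and Pdk3 (adjusted p = 0.0814). Without fresh replicate 1, Egln3 lost its call for 79-6 against fresh (adjusted p = 0.0544).

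Of 10 further hypoxia-induced genes, 5 rose and 1 fell with DMSO. Bnip3, a mitochondrial receptor that marks mitochondria for removal, had log2 intensities of 9.56 and 9.66 with 79-6, 10.05 and 10.47 with DMSO, and 9.02 and 9.17 in fresh cells. The DMSO arrays lay highest but differed by more than the pairs of the other groups. Bnip3 rose by 1.17 ± 0.14 (SE, adjusted p = 0.00124) with DMSO, or 2.24-fold, and changed by -0.65 ± 0.14 (SE, adjusted p = 0.0471) with 79-6 against DMSO. With 79-6 against fresh it rose by 0.51 ± 0.14 (SE, limma adjusted p = 0.0315). Another Bnip3 probe set gave 1.06, -0.66 and 0.40 in these 3 comparisons. Its relative Bnip3l, the receptor that clears mitochondria from red cells, changed by 0.13 with DMSO and by -0.07 with 79-6 against DMSO, and was not called. P4ha1, the catalytic subunit of the collagen prolyl hydroxylase, gave 10.22 and 10.19 with 79-6, 10.31 and 10.51 with DMSO, and 9.38 and 9.48 in fresh cells. Both cultured groups stood clear of fresh cells, by 0.98 ± 0.09 (SE, adjusted p = 3.77e-04) with DMSO and 0.77 ± 0.09 (SE, adjusted p = 8.43e-04) with 79-6, and the difference of -0.20 between them did not pass (adjusted p = 0.256). P4ha2, the related subunit, changed by 0.11 and -0.03 and was not called.

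Ankrd37, an ankyrin repeat gene induced by HIF, gave 8.03 and 8.06 with 79-6, 8.21 and 8.52 with DMSO, and 7.47 and 7.53 in fresh cells. The groups were separate, with DMSO highest and its arrays widest apart. It changed by 0.87 ± 0.11 (SE, adjusted p = 0.00151) with DMSO, by -0.32 with 79-6 against DMSO (adjusted p = 0.152) and by 0.55 ± 0.11 (SE, adjusted p = 0.00887) with 79-6 against fresh. Ddit4, whose product REDD1 restrains mTORC1, gave 9.49 and 9.40 with 79-6, 9.56 and 9.90 with DMSO, and 8.80 and 8.86 in fresh cells. It showed the same order of groups without overlap. It changed by 0.90 ± 0.12 (SE, adjusted p = 0.00189) with DMSO, by -0.28 with 79-6 against DMSO (adjusted p = 0.233) and by 0.62 ± 0.12 (SE, adjusted p = 0.00769) with 79-6 against fresh. Kdm3a, a histone demethylase induced by low oxygen, read 10.43 and 10.25 with 79-6, 10.63 and 10.76 with DMSO, and 10.13 and 10.04 in fresh cells; it rose by 0.61 ± 0.09 (SE, adjusted p = 0.00359) with DMSO, and its change of -0.36 with 79-6 against DMSO did not pass (adjusted p = 0.0794). For 79-6 against fresh, the call of Bnip3 was lost without fresh replicate 1 (adjusted p = 0.15), fresh replicate 2 (adjusted p = 0.0647), 79-6 replicate 1 (adjusted p = 0.0647) or 79-6 replicate 2 (adjusted p = 0.132) and that of Ankrd37 without fresh replicate 1 (adjusted p = 0.0544). The 79-6 against DMSO call of Bnip3 was lost without fresh replicate 1 (adjusted p = 0.0646), fresh replicate 2 (adjusted p = 0.0646), DMSO replicate 2 (adjusted p = 0.166), 79-6 replicate 1 (adjusted p = 0.109) or 79-6 replicate 2 (adjusted p = 0.165).

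Ndrg1, Vegfa and Car9 are also known as hypoxia-induced genes, and they stood lowest with 79-6. Ndrg1, a stress-responsive gene linked to differentiation, read 9.44 and 9.54 with 79-6, 10.18 and 10.73 with DMSO, and 11.35 and 11.19 in fresh cells. Fresh cells were highest, DMSO intermediate with its arrays far apart, and 79-6 lowest. Ndrg1 fell by 0.82 ± 0.17 with DMSO (SE, adjusted p = 0.0135), changed by -0.96 ± 0.17 (SE, adjusted p = 0.0277) with 79-6 against DMSO and by -1.78 ± 0.17 (SE, adjusted p = 3.70e-04) with 79-6 against fresh, a 3.43-fold difference. Vegfa, the gene of the vessel growth factor, read 8.65 and 8.64 with 79-6, 9.25 and 9.61 with DMSO, and 9.34 and 9.40 in fresh cells. DMSO and fresh arrays overlapped, with a change of 0.06 (adjusted p = 0.804), and both 79-6 arrays lay below them. With 79-6 the change was -0.78 ± 0.12 (SE, adjusted p = 0.0184) against DMSO and -0.73 ± 0.12 (SE, adjusted p = 0.00404) against fresh. Car9, the gene of a carbonic anhydrase, read 6.47 and 6.43 with 79-6, 6.63 and 6.74 with DMSO, and 6.84 and 6.76 in fresh cells. The 79-6 arrays lay lowest, and the change was -0.35 ± 0.08 (SE, adjusted p = 0.0139) against fresh and -0.24 against DMSO (adjusted p = 0.135). Against DMSO, the call of Ndrg1 with 79-6 was lost without DMSO replicate 2 (adjusted p = 0.0818), 79-6 replicate 1 (adjusted p = 0.0757) or 79-6 replicate 2 (adjusted p = 0.12) and that of Vegfa without DMSO replicate 2 (adjusted p = 0.0709), 79-6 replicate 1 (adjusted p = 0.0546) or 79-6 replicate 2 (adjusted p = 0.107). The fall of Ndrg1 with DMSO was lost without fresh replicate 1 (adjusted p = 0.075), and the call of Car9 without fresh replicate 1 (adjusted p = 0.0972) or 79-6 replicate 2 (adjusted p = 0.0601).

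**Figure D3:**
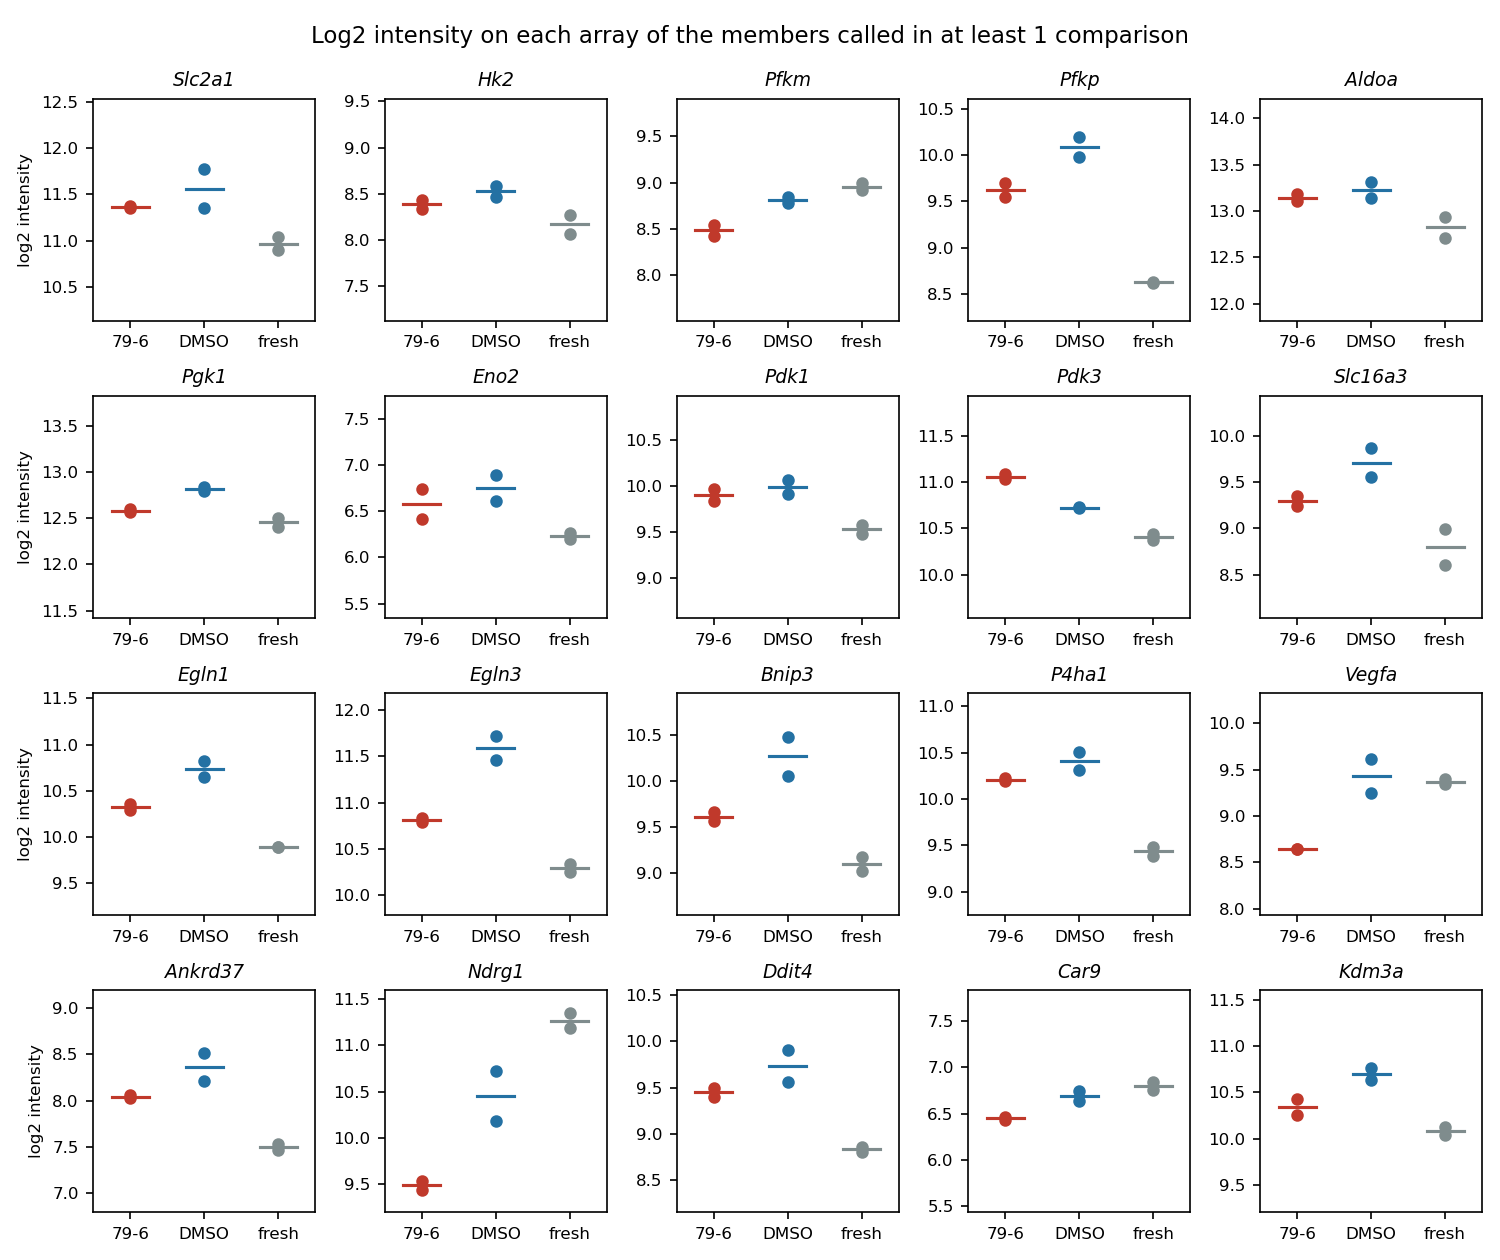
Log2 intensity (y axis, each panel spanning the same range) of the 20 members called in at least 1 comparison, on the 2 arrays of 79-6, DMSO and fresh cells (x axis); points are arrays and lines are group means. In Pfkp, Egln3 and Bnip3 the DMSO points lie highest, in Pdk3 the 79-6 points, and in Ndrg1 the fresh points.

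The DMSO arrays differed from each other in these genes. Replicate 2 read above replicate 1 in 32 of 34 members with DMSO, in 18 of 34 with 79-6 and in 25 of 34 in fresh cells. The shares of all genes were 52.9%, 55.4% and 49.6%, so the 79-6 count is near the background. The median difference was 0.17 with DMSO, 0.01 with 79-6 and 0.06 in fresh cells on the log2 scale, against 0.01, 0.02 and -0.00 over all genes. The largest gap with DMSO was 0.55, in Ndrg1. On DMSO replicates 1 and 2 the summed marker signals were 11.92 and 12.46 for thymic epithelium, and 11.96 and 12.16 for mesenchyme and endothelium. They were 14.27 and 14.37 for macrophages and dendritic cells, and 12.45 and 12.42 for granulocytes and mast cells. Thymocyte markers gave 15.70 and 15.74, and erythroid markers 9.29 and 9.32. The part of cell content in the gap between the DMSO arrays was not tested. Measured from each gene's mean over 6 arrays, the member median was -0.00 and -0.01 on the 79-6 arrays, 0.06 and 0.22 on the DMSO arrays, and -0.13 and -0.09 on the fresh arrays. DMSO replicate 2 was above the mean in 33 of 34 members and DMSO replicate 1 in 26, beside 48.6% of all genes on each. Both DMSO arrays stood above both arrays of each other group in this median, at unequal distances. With DMSO replicate 1 as the only DMSO array, the median change of the members was 0.19 for DMSO against fresh and -0.11 for 79-6 against DMSO. With DMSO replicate 2 as the only one it was 0.28 and -0.31.

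**Figure D4:**
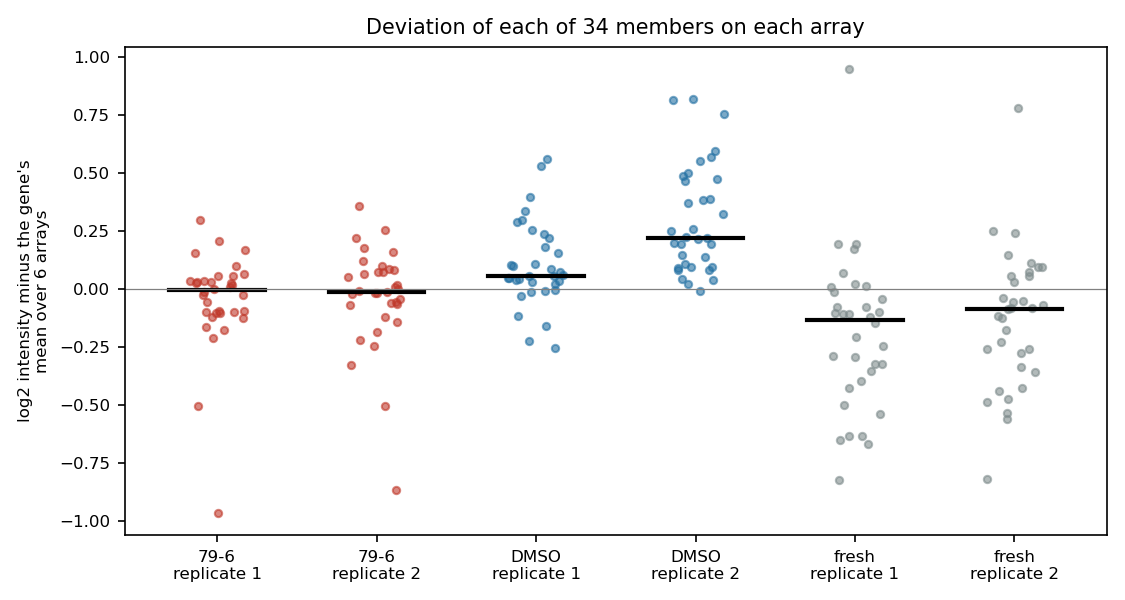
Log2 intensity minus the gene's own mean over 6 arrays (y axis) for each of 34 members (points) on each array (x axis); black lines are medians. The median is 0.22 on DMSO replicate 2, 0.06 on DMSO replicate 1 and at or below 0 on the other arrays.

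Of 98 measured pathway genes outside the set, 12 rose and 15 fell with DMSO (12.2% and 15.3%, beside 8.89% and 10.7% of all genes), 3 rose and 6 fell with 79-6 against DMSO (3.06% and 6.12%, beside 2.38% and 1.98%), and 16 rose and 19 fell with 79-6 against fresh (16.3% and 19.4%, beside 12.0% and 13.9%). Leaving out 1 of the arrays compared cut the 12 rises to 4 (fresh replicate 1), 5 (fresh replicate 2), 6 (DMSO replicate 1) or 5 (DMSO replicate 2), and the 15 falls to 9 (fresh replicate 2) or 10 (DMSO replicate 2). With 79-6 against DMSO the 3 rises numbered 1 when a DMSO array, whichever, or 79-6 replicate 2 was left out. The 6 falls there numbered 2 without DMSO replicate 1, 3 without 79-6 replicate 1, and 0 without DMSO replicate 2 or 79-6 replicate 2 (13 each at an unadjusted limma p below 0.05). With 79-6 against fresh the 16 rises numbered 6 without fresh replicate 1 and 9 without 79-6 replicate 2, and the 19 falls 12 without fresh replicate 2. Their median changes were 0.07, -0.02 and 0.07. Rises with DMSO were mostly among 38 further hypoxia-induced genes, where 11 rose and 5 fell. Map3k1, a stress kinase gene (0.99), Adm, the gene of the peptide adrenomedullin (0.88), and Ero1a, an oxidase of protein folding (0.76), rose, while Stc1, the gene of the hormone stanniocalcin, changed by -2.46. With 79-6 against DMSO, Tgfb3, a growth factor gene (1.28), rose, and Plod2, a collagen lysyl hydroxylase (-0.77), and Car12, a carbonic anhydrase (-0.48), fell. Against fresh cells, 11 rose and 4 fell with 79-6, led by Stc1 at -2.79, Tgfb3 at 1.35, Fos at 0.99 and Map3k1 at 0.99.

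Genes of gluconeogenesis, glycogen and the pentose phosphate route fell where they moved with DMSO, 5 of 20, with the other 15 not called. Of all genes 8.89% rose and 10.7% fell with DMSO, and 12.0% rose and 13.9% fell with 79-6 against fresh. Fbp1, the fructose bisphosphatase that reverses the phosphofructokinase step, had log2 intensities of 6.08 and 6.19 with 79-6, 6.53 and 6.49 with DMSO, and 11.95 and 11.97 in fresh cells. Its change was -5.45 ± 0.07 (SE, adjusted p = 2.19e-07) with DMSO and -0.38 ± 0.07 (SE, adjusted p = 0.0387) with 79-6 against DMSO. Pgm1, a phosphoglucomutase (-0.84), G6pc3, a glucose phosphatase (-0.60), and Pcx, the pyruvate carboxylase (-0.36), were also lower with DMSO. With 79-6 against fresh, 2 rose and 7 fell, among them Fbp1 (-5.83), Pygl, a glycogen phosphorylase (0.97), Pgm1 (-0.93) and G6pc3 (-0.78).

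Among 25 further glycolysis isoenzymes and neighbours, 1 rose and 3 fell with DMSO, beside 8.89% and 10.7% of all genes. Of all genes 2.38% rose and 1.98% fell with 79-6 against DMSO. With 79-6 against fresh 12.0% rose and 13.9% fell. Slc2a6, a transporter of the glucose transporter family, rose by 0.44 with DMSO and by 0.60 with 79-6 against DMSO. Ldhb, the other lactate dehydrogenase subunit (-0.59), and Slc16a1, the lactate carrier MCT1 (-0.55), fell with 79-6 against DMSO. Pgam2, the muscle mutase (-1.64), Slc16a7, a monocarboxylate carrier (-0.58), and Adpgk, an ADP-dependent glucokinase (-0.47), were lower with DMSO. With 79-6 against fresh, 2 rose and 6 fell, led by Pgam2 (-1.83), Slc2a6 (1.03), Ldhb (-0.93) and the hexokinase Hk3 (0.66). Of 15 genes of the HIF machinery, 2 fell with DMSO, 1 rose and 1 fell with 79-6 against DMSO, and 1 rose and 2 fell with 79-6 against fresh. These small counts stand beside the same shares of all genes and were not tested against them. Hif3a, an alpha subunit that can oppose the others, changed by -0.85 with DMSO, -0.53 with 79-6 against DMSO and -1.39 with 79-6 against fresh, all called. Epas1, the HIF alpha subunit best known in endothelium, was called higher with 79-6 against DMSO (0.35) and against fresh (0.22), and Arnt2, a partner subunit, lower with DMSO (-0.61) and with 79-6 (-0.30), each against fresh. Adjusted p-values of the genes named here outside the set lay between 1.35e-07 and 0.0496 (limma).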

How the data were processed

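Total RNA of 6 samples (3 groups of 2) was labelled and hybridised to Affymetrix whole-transcript arrays, 1 array per sample. The deposited table holds intensity values on a linear scale for 34760 probe sets; per the submitters' processing notes they were made with RMA and oligo, versions not given in the sources used here. Quantile normalisation within RMA sets the distributions of the arrays nearly equal, so a change shared by most genes would not be seen. Values were taken to log2 here. Probe sets with 1 gene symbol (21640) were kept, 1321 with several symbols and 11799 with none were left out, and the one with the highest mean stood for its gene, which gave 19937 genes. No gene was filtered out by level. One linear model per gene over all 6 arrays, with 1 mean per group, was fitted with limma 3.58.1 (lmFit, eBayes, R 4.3.3, 3 residual degrees of freedom), with Benjamini-Hochberg adjustment over all genes for each comparison and a threshold of 0.05. The fit was also run on simulated data, whose outcome is not given here. The labels leave unsaid whether replicates were separate cultures or litters; the p-values therefore measure only how these arrays varied, which may be technical. Alternatives were a replicate block, other normalisations, a filter below the 25th percentile, the mean of a gene's probe sets, eBayes with trend and robust settings, only the 4 arrays compared, and each array left out. All members were named, with values of every array for those called in at least 1 comparison and for Hif1a, Vhl and Ldha, and up to 4 called genes with the highest absolute change per list of other pathway genes and comparison. The members, lists and tests were chosen with earlier results of these data known. Promoter windows of 300 bases came from RefSeq (GRCm38.p6) and were matched by gene identifier. Ndrg1, Slc2a3 and Bnip3l were not matched.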

Additional observations from a re-analysis of the deposited data

How the results depend on the processing

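No change of direction occurred for the members called, their counts or their medians in the 7 alternatives and 6 fits with 1 array left out. Of the calls, 17 of 17 (DMSO against fresh), 3 of 7 (79-6 against DMSO) and 14 of 14 (79-6 against fresh) held in all 7 alternatives, and 9, 0 and 8 in all 6 fits with 1 array left out. Members lower with 79-6 than with DMSO numbered 11 with trend and robust eBayes and 3 with only the 4 arrays compared, against 6; the calls of Egln1, Pfkp and Bnip3 were lost with only the 4 arrays, and that of Egln1 also with the replicate block (adjusted p = 0.0552). Members higher there numbered 0 with the replicate block, with arrays set to 1 median and with only the 4 arrays compared, by limma (1 at an unadjusted p below 0.05 each time), since Pdk3 lost its call (adjusted p = 0.0737, 0.0772 and 0.0814). Other pathway genes higher numbered 20 for DMSO against fresh with arrays set to 1 median, against 12, and 5 for 79-6 against DMSO with trend and robust eBayes, against 3. The cause of these differences was not tested. With 1 array left out, members higher numbered 9 to 16, 0 to 0 and 5 to 11 in the 3 comparisons (DMSO against fresh, 79-6 against DMSO, 79-6 against fresh), and members lower 0 to 1, 0 to 4 and 3 to 4; the counts of 0 were 1 to 14 at an unadjusted p below 0.05. Other pathway genes higher numbered 4 to 14, 1 to 2 and 6 to 15, and lower 9 to 15, 0 to 5 and 12 to 19. The median change of the members ran from 0.19 to 0.29, from -0.31 to -0.11 and from 0.09 to 0.14. Such fits have 1 residual degree of freedom less. The labels number replicates 1 and 2 in each group, but deviations of samples with the same number correlated at 0.00357 (DMSO and fresh), -0.07 (79-6 and DMSO) and 0.09 (79-6 and fresh), so the numbers are not taken to pair samples. With the replicate block, 16 members were higher and 1 lower for DMSO against fresh, 0 and 5 for 79-6 against DMSO, and 13 and 4 for 79-6 against fresh. Probe sets near the lowest signals limit what can be seen. All 34 members lay above the 25th percentile, 5.57 on the log2 scale, which is not a detection limit. P4ha2, Eno2 and Car9 lay lowest, at percentiles 38.59, 41.42 and 43.41 of all genes, and distance from background was not tested.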
